A study of Mus musculus with 18 samples.

Results

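The genes described are 35 of the 26301 genes in a read-count table of cultured mouse astrocytes, namely genes of the contractile cytoskeleton, the YAP pathway and transforming growth factor beta (TGF-beta) signalling. The contractile and actin-binding group has 17 genes (Tagln, Acta2, Myl9, Cnn1, Cnn2, Cnn3, Tpm1, Tpm2, Tpm4, Cald1, Vcl, Flna, Actn1, Actn4, Zyx, Csrp1 and Srf). The YAP group has 9 (Yap1, Wwtr1, Tead1, Lats2, Amotl2, Ajuba, Ccn1, Ccn2 and Ankrd1), and the TGF-beta group has 9 (Tgfb1, Tgfb2, Tgfb3, Ltbp1, Ltbp2, Tgfbr1, Tgfbr2, Tgfbi and Skil). They were chosen by name, with no threshold on measured values. All 35 were found, Ccn1 and Ccn2 being the genes also known as Cyr61 and Ctgf, and 34 passed the filter on low counts. The exception was Ankrd1, a nuclear muscle ankyrin-repeat protein widely used as a YAP target, which had 5 reads in the replicate 1 co-culture of day 2, 5 reads in the replicate 3 astrocytes alone of day 7 and 0 reads in every other library.

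The astrocytes came from the cortex of newborn (P0) mice and were cultured for 2 weeks in DMEM with 10% FBS, 2 mM glutamate and penicillin and streptomycin. Once confluent they were moved to N2 medium, so all 6 groups share serum expansion followed by a change of medium. In 3 groups the astrocytes stayed alone for 2, 4 or 7 days. In the other 3 groups hippocampal neurons from P0 mice carrying TdTomato, a red fluorescent protein, were plated on them for the same times. Cells were then detached and sorted by TdTomato fluorescence, and the gate for TdTomato-negative cells was set on the astrocytes that had no neurons. The strain is not given in the sources used here. Each group has 3 libraries, and the labels give the same date to all libraries of one replicate number. The title of the series asks which astrocyte transcripts respond to contact with neurons.

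Cells in culture pull on their surroundings through bundles of actin and non-muscle myosin that end in adhesions containing vinculin, zyxin and alpha-actinin. The transcription factor SRF binds CArG boxes in many genes of this machinery, and the coactivators YAP and TAZ (the product of Wwtr1), held in the cytoplasm by the LATS kinases, act with TEAD factors on genes such as Ccn1 and Ccn2. TGF-beta is secreted in a latent complex with LTBP proteins, signals through a pair of receptor kinases and SMAD proteins, and in astrocytes is known for its link to reactive states and matrix production.

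Promoter letters are shown for 5 genes that each have a CArG box or GGAATG, so that these motifs can be seen beside the expression values. The 5 do not stand for all genes described. Acta2 has no exact CArG box, and Ltbp1, Ltbp2 and Tgfb2 have neither motif. A link between motif and change was not tested. The letters come from RefSeq (build GRCm38.p6, 250 bases before to 50 bases after the gene start, on the strand of the gene), while the counts were made on mm9, so they serve only as sequence. Of the 35 genes, 30 had at least 1 promoter in the table, 36 promoters in all, and Tagln, Ccn2, Tead1, Tgfb3 and Skil had none. Capitals mark the CArG box or GGAATG, the core of the TEAD site, each searched on both strands. The CArG box was searched only as the exact CCWWWWWWGG, where W is A or T. Sites that differ from it by a letter, such as CCCTATATGG in the Acta2 promoter, were not counted.
Myl9, chr2:156775214-156775513 (+): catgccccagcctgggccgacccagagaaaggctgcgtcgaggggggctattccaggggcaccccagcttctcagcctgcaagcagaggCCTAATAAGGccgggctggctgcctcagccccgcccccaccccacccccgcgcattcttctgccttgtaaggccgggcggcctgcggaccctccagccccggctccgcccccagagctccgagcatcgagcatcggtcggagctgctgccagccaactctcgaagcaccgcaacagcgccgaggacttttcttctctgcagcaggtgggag
Cnn2, chr10:79988350-79988649 (+): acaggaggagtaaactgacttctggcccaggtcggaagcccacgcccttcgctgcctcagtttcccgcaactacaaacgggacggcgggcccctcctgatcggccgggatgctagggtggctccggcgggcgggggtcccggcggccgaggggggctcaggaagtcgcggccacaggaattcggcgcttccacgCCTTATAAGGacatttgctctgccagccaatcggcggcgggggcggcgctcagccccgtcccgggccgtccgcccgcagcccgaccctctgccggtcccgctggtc
Vcl, chr14:20929148-20929447 (+): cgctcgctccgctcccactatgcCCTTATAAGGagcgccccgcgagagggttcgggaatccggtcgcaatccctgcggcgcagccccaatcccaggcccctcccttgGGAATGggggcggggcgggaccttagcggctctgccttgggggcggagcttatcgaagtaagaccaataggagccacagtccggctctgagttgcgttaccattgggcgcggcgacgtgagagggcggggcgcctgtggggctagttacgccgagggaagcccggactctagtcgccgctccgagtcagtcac
Ccn1, chr3:145649936-145650235 (-): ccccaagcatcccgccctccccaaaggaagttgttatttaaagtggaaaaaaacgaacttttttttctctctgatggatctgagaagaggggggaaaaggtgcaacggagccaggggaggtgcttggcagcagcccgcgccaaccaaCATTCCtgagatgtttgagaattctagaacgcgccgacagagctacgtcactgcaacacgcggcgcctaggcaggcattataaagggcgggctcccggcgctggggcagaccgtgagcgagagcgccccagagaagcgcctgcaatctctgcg
Lats2, chr14:57746074-57746373 (-): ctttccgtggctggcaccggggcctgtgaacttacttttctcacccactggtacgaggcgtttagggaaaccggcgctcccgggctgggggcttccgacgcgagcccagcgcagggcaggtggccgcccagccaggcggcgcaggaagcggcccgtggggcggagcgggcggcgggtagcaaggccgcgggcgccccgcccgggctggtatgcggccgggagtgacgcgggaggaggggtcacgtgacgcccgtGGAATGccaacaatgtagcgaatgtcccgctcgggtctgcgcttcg
An exact CArG box lay in the promoters of 4 of the 16 contractile genes with a promoter, Cnn2, Myl9, Srf and Vcl, and of none of the 7 YAP or 7 TGF-beta genes. The motif occurs in 1.63% of the 32851 promoters of the table and in 4 of the 36 promoters of these genes. Counted from the gene start, it began at −161 in Myl9, −56 in Cnn2 and −227 in Vcl. GGAATG lay in at least 1 promoter of all 7 YAP genes in the table (Ajuba, Amotl2, Ankrd1, Ccn1, Lats2, Wwtr1 and Yap1), of 6 of 16 contractile genes (Acta2, Actn4, Cald1, Flna, Tpm1 and Vcl) and of none of the TGF-beta genes. That short motif occurs in 14.7% of all promoters and in 14 of the 36 promoters of these genes. A second Lats2 promoter, not shown, has none. The SMAD palindrome GTCTAGAC occurs in 0.213% of promoters and in none of those of the 30 genes. These matches describe letters in a short window and no binding was measured.

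Libraries held 3242459 to 32623556 counted reads, and values below are CPM (reads scaled to a common library size after TMM normalization) unless said otherwise. Of these libraries 2 stand apart. In the day 2 library of astrocytes alone from replicate 1, 92.5% of the 3242459 reads fell on the single Entrez gene 19791, its TMM factor was 0.0459, and the 35 genes had a median of 16 reads with 6 of them at 3 reads or fewer. In the day 7 co-culture library from replicate 1, with 8966485 reads and a TMM factor of 0.665, mitochondrial 16S ribosomal RNA took 40.5% of the reads, against 0.254% in the first and 5.35% to 18.4% in the other 16. A count of 3 reads equals 20.2 CPM in the first, 0.504 CPM in the second and 0.0743 to 0.179 CPM in the others. Astrocyte markers summed to 578 to 5825 CPM and were lowest in replicate 1 (578 to 2048), higher in replicate 2 (2169 to 2695) and highest in replicate 3 (4307 to 5825). Values over 16 libraries leave both out, and replicates are not paired in them unless a block is named. In co-culture, such a change from day 2 to day 7 keeps replicate 1 at day 2 without its day 7 partner. It is therefore not a paired check. Nothing in the labels says that replicates came from separate animals, and the p-values therefore reflect only how much these cultures differed.

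**Figure D1:**
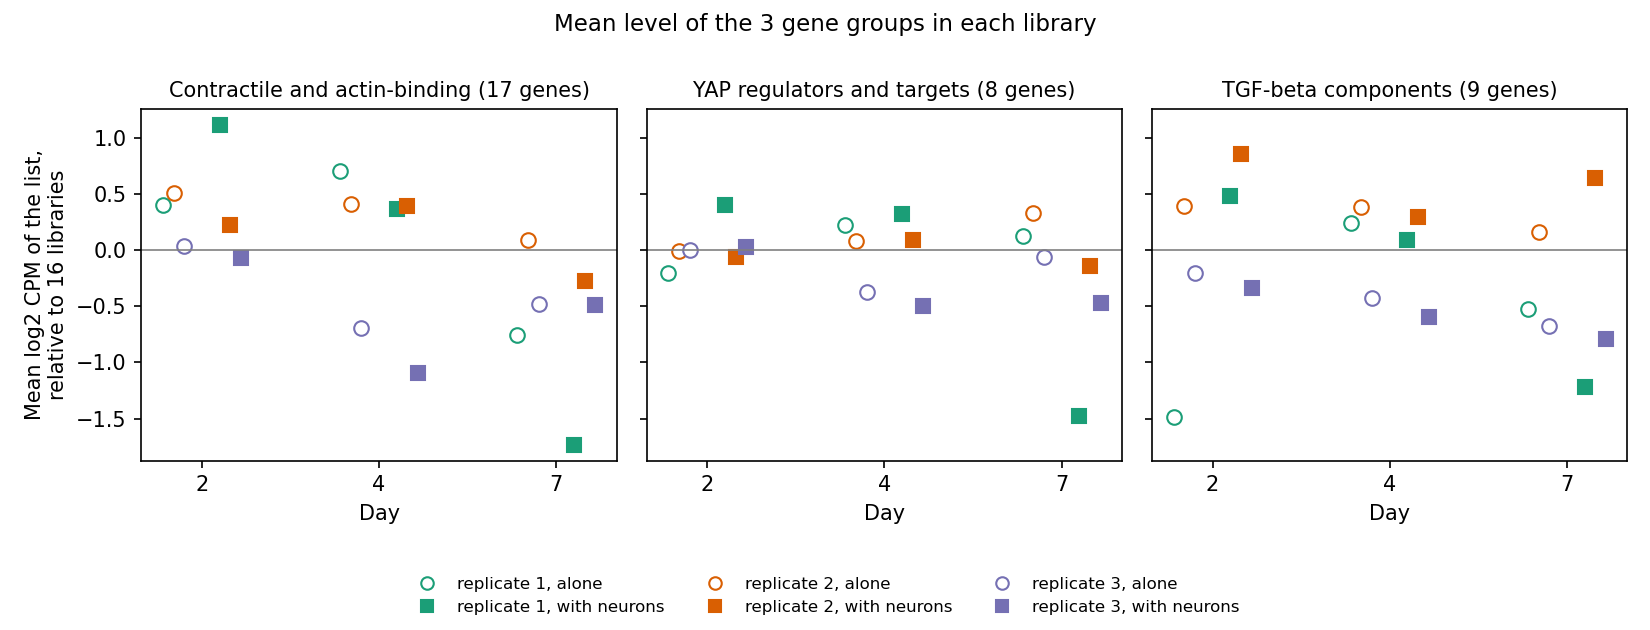
Mean log2 CPM of the 17 contractile, 8 tested YAP and 9 TGF-beta genes in each of the 18 libraries, each gene centred on its mean over 16 libraries, against day (2, 4 or 7), open circles for astrocytes alone, filled squares for co-culture and colours for replicate numbers. The contractile mean in co-culture went from 1.11, 0.23 and −0.07 in replicates 1, 2 and 3 at day 2 to −1.73, −0.27 and −0.49 at day 7, and replicate 3 was already at −1.09 at day 4.

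In co-culture the contractile genes were lower at day 7 than at day 2. The fitted change was below 0 in 16 of 17 (17 of 17 with upper-quartile scaling), with a median of −1.17 on the log2 scale, while over all 16539 tested genes 48.8% were below 0 and the median was 0.03. Those furthest down were Acta2, Myl9 and Tagln, the classic markers of contractile smooth muscle and myofibroblasts. In astrocytes alone 15 of 17 were also below 0, against 49% of all genes, but the median was smaller, −0.52. No gene was called in either test, which is 0% of the 16539 genes by edgeR's quasi-likelihood test at a Benjamini-Hochberg adjusted p of 0.05. In RNA from whole sorted populations, fewer cells of a contractile type and less of these RNAs per cell cannot be told apart.

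Acta2 (Entrez 11475) encodes smooth muscle alpha-actin, and its reads may be shared with other actin genes in a way that is not known. In co-culture its level was 1122, 188 and 192 CPM in replicates 1, 2 and 3 at day 2. It was 366, 405 and 51.9 CPM at day 4, and 22.7, 75.7 and 142 CPM at day 7. Every day 7 value was below every day 2 value, and day 4 overlapped both. In astrocytes alone the values were 383, 405 and 281 CPM at day 2, 678, 357 and 119 at day 4, and 63.6, 342 and 115 at day 7, where day 2 and day 7 overlap. The fitted change from day 2 to day 7 was −2.64 log2 (SE 0.89, n = 3 and 3, edgeR unadjusted p = 0.00784, adjusted p = 0.278) in co-culture and −1.04 (SE 0.85) in astrocytes alone. Over 16 libraries the co-culture change was −2.21, and with the replicate number as a block as well it was −1.23.

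Tagln (Entrez 21345) encodes transgelin, an actin-bundling protein. In co-culture it stood at 214, 73.0 and 59.8 CPM at day 2, at 88.6, 77.8 and 19.6 CPM at day 4, and at 4.37, 26.8 and 39.5 CPM at day 7. In astrocytes alone it stood at 94.1, 149 and 73.3 CPM at day 2, at 118, 75.3 and 42.6 CPM at day 4, and at 19.2, 69.7 and 39.4 CPM at day 7. Both kinds of culture had all their day 7 values below all their day 2 values. The fitted changes were −2.28 (SE 0.72) in co-culture (edgeR unadjusted p = 0.00509, adjusted p = 0.271) and −1.32 (SE 0.71) in astrocytes alone, and the co-culture change over 16 libraries was −1.81. That last value still includes the 214 CPM of replicate 1 at day 2, without its day 7 partner. Myl9 (Entrez 98932), a regulatory light chain of myosin with close paralogs in Myl12a and Myl12b, showed the same order of days. Its co-culture levels were 329, 114 and 90.7 CPM at day 2, 138, 144 and 34.5 at day 4, and 4.54, 50.2 and 46.9 at day 7. Those of astrocytes alone were 202, 174 and 109.8 CPM at day 2, 202, 132 and 45.8 at day 4, and 27.8, 109 and 50.9 at day 7. For Myl9, day 2 and day 7 did not overlap in either kind of culture, and the fitted changes were −2.38 (SE 0.77) in co-culture (edgeR unadjusted p = 0.00634, adjusted p = 0.271) and −1.35 (SE 0.76) alone. Over 16 libraries the co-culture change of Myl9 was −1.88, which likewise includes the unpaired 329 CPM of replicate 1 at day 2.

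Calponins bind actin and restrain myosin. Cnn2 (Entrez 12798), whose promoter is shown above with its CArG box, was at 452, 207 and 147 CPM in co-culture at day 2, at 265, 172 and 70.4 CPM at day 4 and at 50.9, 105 and 79.3 CPM at day 7. In astrocytes alone it was at 215, 204 and 152 CPM at day 2, 356, 214 and 69.3 at day 4, and 85.0, 212 and 97.6 at day 7. With neurons, day 7 lay wholly below day 2, and alone the 2 days overlapped. The fitted changes were −1.77 (SE 0.58, edgeR adjusted p = 0.271; −1.54 over 16 libraries) in co-culture and −0.52 (SE 0.57) alone. The test of whether the co-culture effect differed between days called none of the 34 genes (edgeR adjusted p = 1 for each). Cnn1, the smooth muscle calponin, had changes of −1.24 (SE 0.65) in co-culture and −0.99 (SE 0.67) alone. Cnn3, the form found in many cell types, had a co-culture change of −0.31 (SE 0.43).

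The tropomyosins, which lie along actin filaments and are encoded by closely related genes, differed among themselves. Co-culture changes from day 2 to day 7 were −1.44 (SE 0.93) for Tpm2, −0.96 (SE 0.52) for Tpm1 and −0.09 (SE 0.36) for Tpm4. Tpm2 had 38.1, 37.3 and 14.5 CPM in co-culture at day 2 and 0.336, 22.4 and 9.80 CPM at day 7, so its groups overlap. Cald1 (caldesmon, which blocks myosin's access to actin) was the member of the group whose co-culture change was not below 0, at 0.01 (SE 0.41). Its co-culture values were 621, 375 and 337 CPM at day 2 and 465, 469 and 406 CPM at day 7.

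Flna and Vcl, which cross-link actin and anchor it at adhesions, both reached their highest value in a day 2 co-culture. Flna (filamin A, Entrez 192176) was at 2517, 1691 and 1757 CPM there, against 988, 1588 and 1356 CPM in astrocytes alone at day 2. At day 4 it was at 1413, 1738 and 809.9 CPM with neurons and 1558, 1582 and 771 alone, and at day 7 at 525, 1045 and 873 with neurons and 921, 1114 and 914 alone. The order of the cultures was thus turned, with co-culture above alone in all 3 pairs at day 2 and below in all 3 at day 7. The fitted co-culture effect was 0.60 (SE 0.40) at day 2, and the change from day 2 to day 7 was −1.29 (SE 0.40, edgeR unadjusted p = 0.00492, adjusted p = 0.271) with neurons and −0.42 (SE 0.40) alone. DESeq2 called the co-culture change of Flna (−1.22, adjusted p = 0.037), and limma-voom did not.

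Vcl (vinculin, Entrez 22330), whose promoter holds both a CArG box and GGAATG, was at 777, 388 and 404 CPM in co-culture at day 2, at 485, 310.2 and 243 CPM at day 4 and at 139.7, 300.1 and 259 CPM at day 7. Alone it was at 383, 346 and 369 CPM, then 616, 350.0 and 269 CPM, then 319, 519.9 and 318 CPM. At day 2 the 3 co-culture values lay above all values of astrocytes alone, and at day 7 below all of them. The fitted co-culture effect was 0.52 (SE 0.41) at day 2 and −0.73 (SE 0.41, edgeR unadjusted p = 0.0896) at day 7. Its change from day 2 to day 7 was −1.17 (SE 0.41, edgeR unadjusted p = 0.0103, adjusted p = 0.281) in co-culture and 0.08 (SE 0.41) alone, and the co-culture change was −0.90 over 16 libraries.

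Among the other adhesion proteins, Actn4 and Actn1 (alpha-actinins) had co-culture changes of −1.37 (SE 0.51) and −1.17 (SE 0.47) from day 2 to day 7, or −1.06 and −0.81 over 16 libraries, and Zyx (zyxin) of −0.79 (SE 0.51). Actn4 was at 977, 512 and 313 CPM in the day 2 co-cultures and at 120.4, 336 and 242 CPM at day 7. Csrp1, a LIM protein bound to actin bundles, and Srf itself had smaller fitted changes with neurons than without. For Csrp1 they were −0.47 (SE 0.38) in co-culture and −0.85 (SE 0.38, edgeR unadjusted p = 0.0404) alone, and for Srf −0.23 (SE 0.40) in co-culture and −0.95 (SE 0.42, edgeR unadjusted p = 0.0354) alone. Srf in astrocytes alone was at 53.8, 41.0 and 28.4 CPM at day 2 and at 24.2, 21.4 and 14.8 CPM at day 7, with no overlap, whereas in co-culture it was at 41.3, 33.2 and 42.2 CPM and then 50.3, 26.9 and 22.3 CPM.

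**Figure D2:**
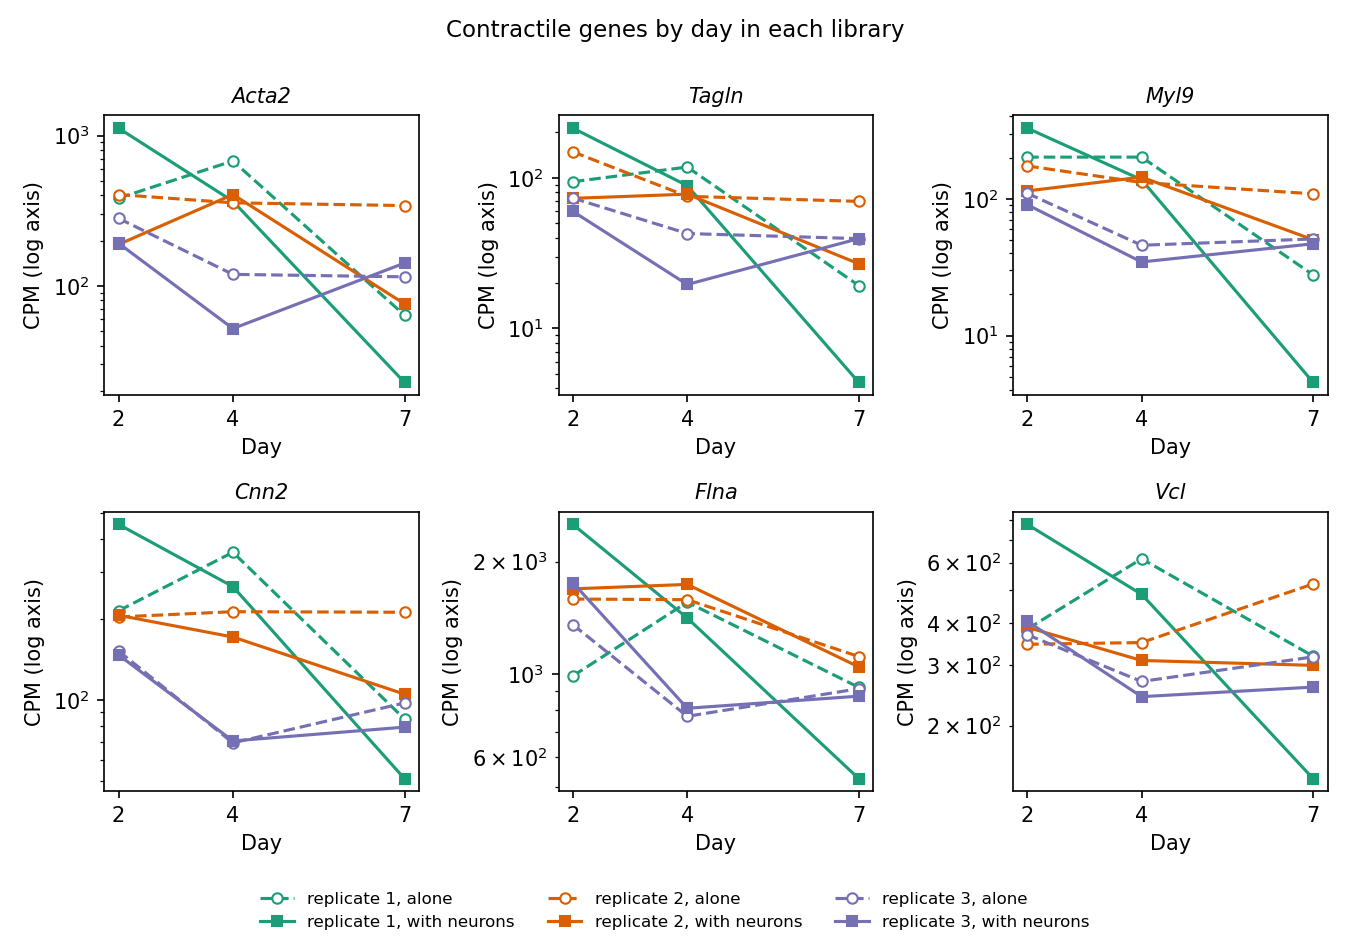
CPM (log axis) of Acta2, Tagln, Myl9, Cnn2, Flna and Vcl against day for each replicate number, dashed lines with open circles for astrocytes alone and solid lines with filled squares for co-culture. In co-culture replicate 1 goes from the highest value at day 2 (Acta2 1122 CPM) to the lowest at day 7 (22.7 CPM), while replicate 3 is lower at day 4 (51.9 CPM) than at day 7 (142 CPM).

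The size and timing of this difference varied among the replicate numbers. The median of the 17 contractile genes from day 2 to day 7 of co-culture was −2.48, −0.50 and −0.56 in replicates 1, 2 and 3, beside −0.32, 0.15 and −0.01 for all tested genes. In replicate 1, 17 of 17 were lower at day 4 than at day 2, with a median of −0.68. In replicate 2 the day 4 median was 0.09, and 16 of 17 were lower at day 7 than at day 4. In replicate 3, 17 of 17 were lower at day 4 than at day 2 (median −1.07) and 15 of 17 were higher at day 7 than at day 4 (median 0.44). Astrocytes alone of replicate 3 had the same sequence, with 17 of 17 lower at day 4 (median −0.67) and 12 of 17 higher from day 4 to day 7 (median 0.24). Over all tested genes the co-culture medians from day 2 to day 4 were 0.04, 0.13 and −0.12 in replicates 1, 2 and 3. In replicate 3, 9100 of 16539 genes were lower at that step. From day 4 to day 7 the all-gene medians were 0.01 in replicate 2 and 0.06 in replicate 3. For astrocytes alone of replicate 3 the 2 steps gave 0.003 and −0.004. The fitted contractile median from day 2 to day 7 of co-culture was −0.90 over 16 libraries, −0.65 with the block as well, and −0.52 without the libraries of replicate 1.

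Over all 34 tested genes, the co-culture change from day 2 to day 7 was below 0 in 31, with a median of −0.85. At an unadjusted p below 0.05 it was lower in 10 (Ltbp2, Flna, Tagln, Myl9, Cnn2, Acta2, Vcl, Actn4, Actn1 and Lats2) and higher in 0, where 13.2% of all genes passed in either direction and 3.17% passed as lower. Day 7 lay wholly below day 2 in 10 (Acta2, Cnn2, Csrp1, Ccn1, Ajuba, Ltbp2, Tagln, Vcl, Myl9 and Flna), against 5.42% of all genes, and wholly above it in 0, against 4.92%. Over 16 libraries these counts were 12, against 8.28%, and 0, against 10.7%. DESeq2 called 2 of the 34, Flna and Ltbp2, and limma-voom, weighting libraries by quality, called 0. The number of all genes that DESeq2 called for this change is given at the end, with the other alternatives. In astrocytes alone 23 of 34 were below 0 (median −0.34, against 0.01 for all genes). There the unadjusted p was below 0.05 for Csrp1 and Srf, lower, and Lats2, higher, against 1.11% of all genes in either direction, 0.695% as lower and 0.411% as higher. Day 7 lay wholly below day 2 in 4 (Cnn1, Srf, Tagln and Myl9), against 2.58%, and wholly above in 2 (Yap1 and Lats2), against 4.66%. Over 16 libraries 9 lay wholly below (adding Csrp1, Tgfb3, Tgfbr1, Actn1 and Flna), against 7.96% of all genes, and 2 wholly above, against 6.66%. A test of any change over the 3 days had an unadjusted p below 0.05 for 8 of 34 genes in co-culture and 0 in astrocytes alone, against 10.4% and 0.526% of all genes, and called 0% in both by edgeR.

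**Figure D3:**
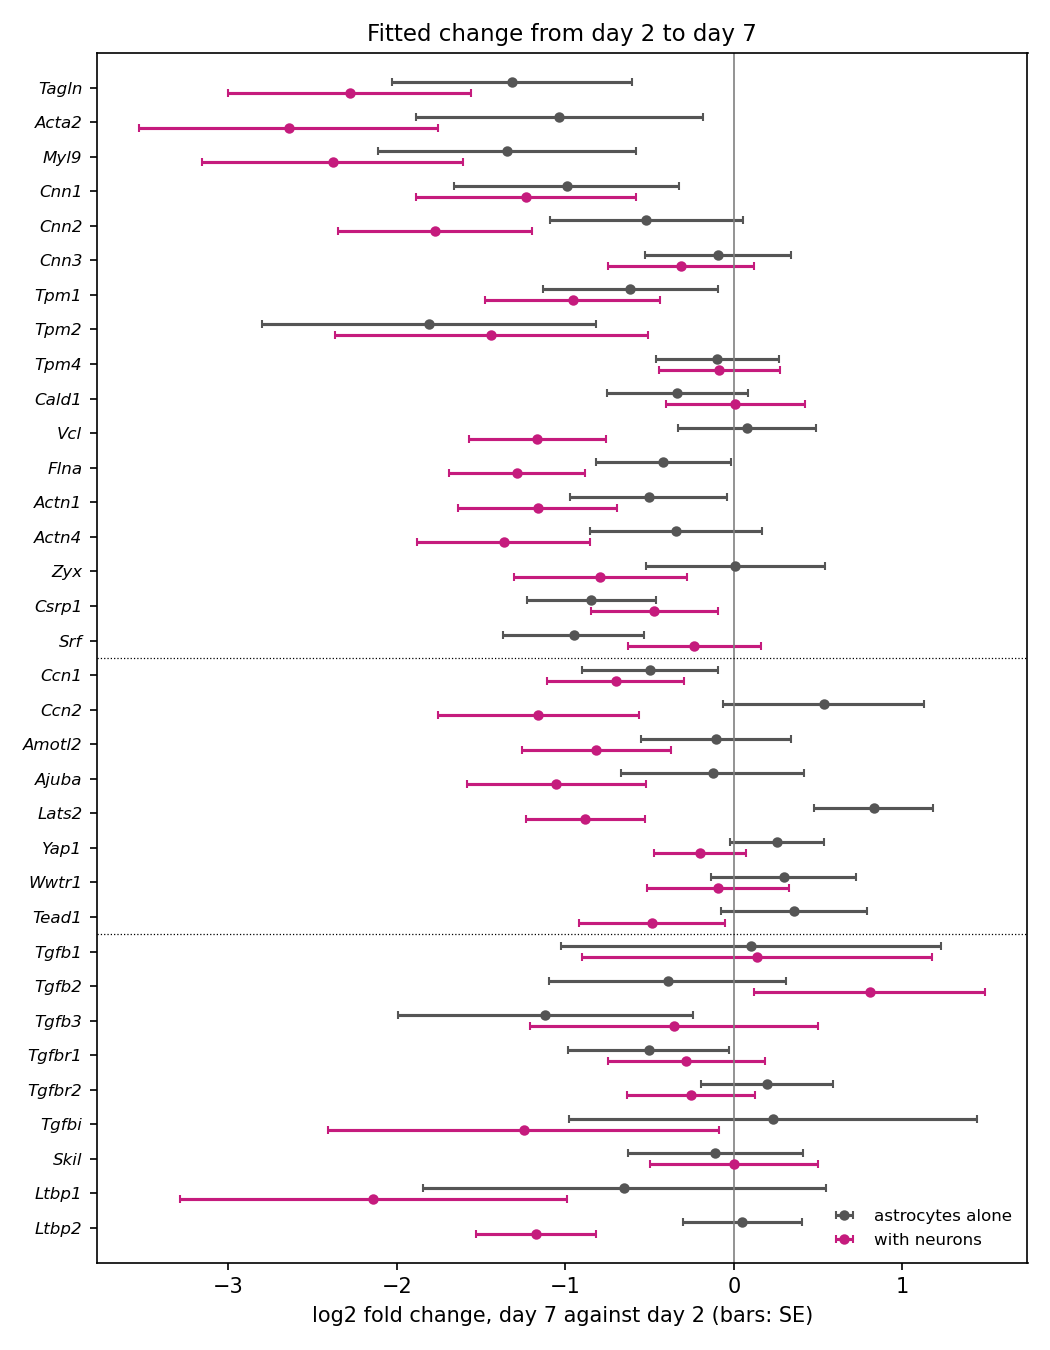
Fitted log2 fold change from day 2 to day 7 (x axis, bars show the SE) of the 34 tested genes in astrocytes alone (grey) and in co-culture (magenta), with dotted lines between the contractile, YAP and TGF-beta groups. Acta2, Myl9 and Tagln lie furthest to the left in co-culture (−2.64, −2.38 and −2.28), and Lats2 lies on opposite sides of 0 in the 2 cultures (0.83 alone and −0.88 with neurons).

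Markers of other cell types that express contractile genes moved in part with these values. The 8 mural cell markers summed to 276 to 310.5 CPM in the day 2 co-cultures and 194 to 219.8 CPM at day 7, without overlap, and to 191 to 321 and 178 to 201 CPM in astrocytes alone. Most of each of these co-culture sums came from Notch3 and Pdgfrb. In replicates 1, 2 and 3 Notch3 was at 165, 194 and 192 CPM at day 2 and 136, 146 and 114 CPM at day 7. Pdgfrb was at 94.1, 68.0 and 95.9 CPM and then 4.88, 61.8 and 57.3 CPM. Single mural markers went both ways, with 3 of the 6 tested higher and 3 lower at day 7 than at day 2 of co-culture (median 0.16). Kcnj8 had 0 reads in all 18 libraries, and 1 to 5 of the 8 markers were at 0 in any library. The 8 fibroblast markers summed to 117 to 159 CPM in the day 2 co-cultures and 29.4 to 114 CPM at day 7, and in astrocytes alone to 99.4 to 155 CPM and 50.02 to 97.7 CPM, again without overlap, with 0 to 2 of the 8 at 0. Their part in the result was not tested.

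At day 7 the fitted levels of the YAP genes were lower with neurons than without, and the pairs differed in this. All 8 tested genes had a fitted co-culture effect below 0, with a median of −0.63, while 49.8% of all genes were below 0 and their median was 0.00. The lowest values were those of Ccn2, a secreted matrix protein and classic YAP target, Lats2, the kinase that restrains YAP, and Tead1, YAP's DNA-binding partner. At day 2 the median was 0.19 with 6 of 8 above 0 (−0.05 without replicate 1). At day 4 it was 0.04 with 5 of 8 above 0, ran from −0.19 (without the replicate 3 astrocytes alone) to 0.20 (without the replicate 3 co-culture) when libraries of day 4 were left out, and was −0.02 with upper-quartile scaling. By pair, the day 7 median was −1.61 in replicate 1 with 8 of 8 lower, −0.02 in replicate 2 with 4 of 8 lower and −0.56 in replicate 3 with 7 of 8 lower. Over all tested genes the medians of these pairs were −0.64, 0.02 and 0.07. In replicate 1 as many as 9812 of the 16539 genes were lower with neurons. None of the 8 was called at any day, as none of the 16539 genes was (0% by edgeR at each day). Leaving out the day 7 co-culture of replicate 1 brought this median to −0.25, and over 16 libraries it was −0.28 with 6 of 8 below 0. In the same comparison 8 of 8 microglial markers (median 2.45) and 4 of 5 tested neuron markers (median 2.43) had a fitted effect above 0, with 0 called. Summed, the microglial markers were at 0.98 to 161 CPM with neurons and 0.581 to 32.8 CPM alone, with 0 to 6 of 8 at 0 reads, and the neuron markers at 22.5 to 124 CPM and 76.1 to 144 CPM, with 0 to 6 and 3 to 5 of 8 at 0 reads. Most of the neuron sum came from Stmn2, except in the replicate 1 co-culture. Stmn2 was at 7.90, 102 and 86.4 CPM with neurons and 74.8, 139 and 90.8 CPM alone. The part of these markers in the result was not tested.

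Lats2 (Entrez 50523), itself known as a target of YAP, was at 180, 262 and 289 CPM in the day 7 co-cultures and at 659, 499 and 444 CPM in astrocytes alone. At day 4 it was at 460.3, 334 and 382 CPM with neurons and 488, 342 and 293 CPM alone, and at day 2 at 694, 287 and 366 CPM with neurons and 256, 292 and 349 CPM alone. All day 7 co-culture values lay below all values of astrocytes alone, with pair differences of −1.87, −0.93 and −0.62 on the log2 scale. The fitted co-culture effect at day 7 was −1.13 (SE 0.35, edgeR unadjusted p = 0.00483, adjusted p = 0.468), and −0.78 over 16 libraries with the block. Over time Lats2 was higher at day 7 than at day 2 in every pair of astrocytes alone (0.83, SE 0.36, edgeR unadjusted p = 0.0311) and lower in every co-culture pair (−0.88, SE 0.35, edgeR unadjusted p = 0.0219). Among the 34 genes it alone had an unadjusted p below 0.05 for a difference of the co-culture effect between days (edgeR unadjusted p = 0.00882, adjusted p = 1), against 2.65% of all genes, with 0% called.

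Ccn2 (Entrez 14219) was at 71.8, 121 and 332 CPM in the day 7 co-cultures and at 237, 984 and 469 CPM in astrocytes alone of the same day. At day 2 it was at 535, 173 and 467 CPM with neurons and 424, 209 and 539 CPM alone, and at day 4 at 559.7, 235 and 292 CPM with neurons and 285, 218 and 375 CPM alone. Co-culture was lower than alone in each day 7 pair (−1.72, −3.02 and −0.50), although the 2 groups overlap through the 332 CPM of replicate 3 and the 237 CPM of replicate 1. The fitted effect at day 7 was −1.68 (SE 0.60, edgeR unadjusted p = 0.0119, adjusted p = 0.468) and −1.36 over 16 libraries. Its close relative Ccn1, whose promoter carries GGAATG, had overlapping groups at day 7, with 298, 594 and 544 CPM with neurons and 438, 633 and 439 CPM alone (effect −0.07, SE 0.40). In the day 2 co-cultures Ccn1 was at 916, 784 and 637 CPM, all above those of day 7, a fitted change of −0.70 (SE 0.40).

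Tead1 (Entrez 21676) was at 152, 348 and 126 CPM in the day 7 co-cultures and at 426, 505 and 245 CPM in astrocytes alone, lower in each pair (−1.49, −0.54 and −0.96) with overlapping groups. At day 4 it was also lower in each pair, at 358, 389 and 134 CPM with neurons and 508, 415 and 299.6 CPM alone. At day 2 it was at 331, 267 and 278 CPM with neurons and 296, 252 and 369 CPM alone. The fitted effect was −0.91 (SE 0.43, edgeR unadjusted p = 0.0491, adjusted p = 0.533) at day 7, −0.47 (SE 0.43) at day 4 and −0.48 (SE 0.25, edgeR unadjusted p = 0.0676) averaged over the days. Wwtr1, which encodes TAZ, was at 122, 126 and 111 CPM with neurons and 165, 131 and 137 CPM alone at day 4, without overlap (effect −0.27, SE 0.42). At day 7 Wwtr1 was at 27.1, 159.8 and 88.3 CPM with neurons and 127, 151 and 144 CPM alone. Yap1 kept within a narrow range, 84.9 to 168 CPM over all libraries, with a day 7 effect of −0.21 (SE 0.27).

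The scaffold genes Amotl2 and Ajuba, which bind YAP or the LATS kinases, showed smaller differences at day 7. Ajuba was at 9.75, 81.4 and 61.1 CPM with neurons and 104, 71.7 and 64.2 CPM alone, and its effect of −0.65 (SE 0.53) became −0.21 over 16 libraries. Amotl2 was at 113, 313 and 206 CPM with neurons and 285, 216 and 215 CPM alone (effect −0.18, SE 0.44). For both genes the low co-culture value was that of replicate 1, the library with 40.5% mitochondrial 16S reads, and the other replicates lay close to their partners or above them.

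**Figure D4:**
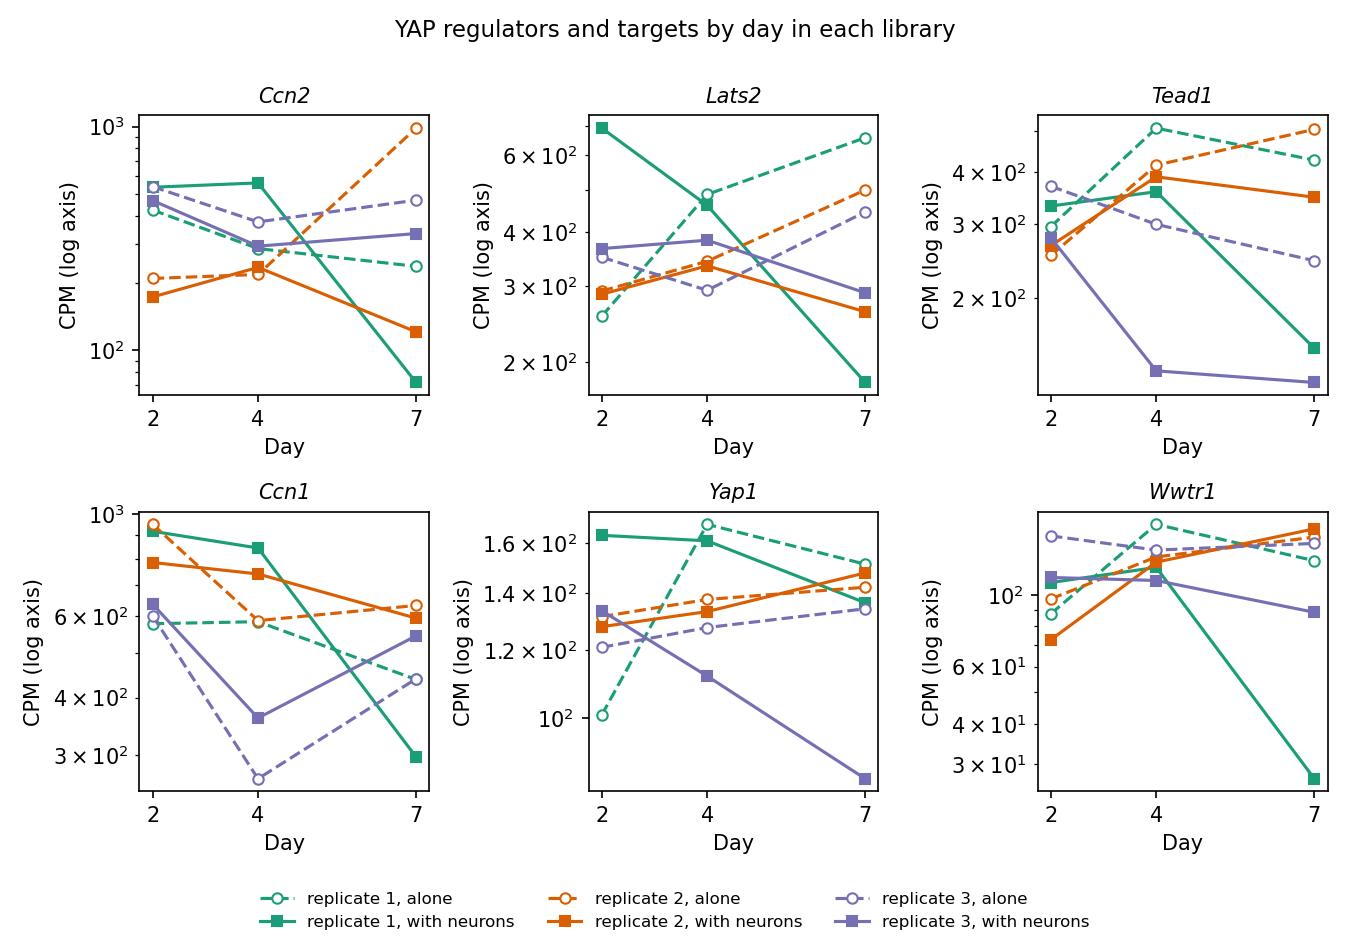
CPM (log axis) of Ccn2, Lats2, Tead1, Ccn1, Yap1 and Wwtr1 against day for each replicate number, dashed lines with open circles for astrocytes alone and solid lines with filled squares for co-culture. At day 7 the 3 co-culture values of Lats2 (180 to 289 CPM) lie below the 3 values of astrocytes alone (444 to 659 CPM), and the values of Ccn1 overlap.

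Over all 34 genes the co-culture effect was above 0 in 27 at day 2 (median 0.26, against 0.04 for all genes, of which 46.6% were below 0). With upper-quartile scaling it was above 0 in 18 at day 2. At day 4 it was below 0 in 22 (median −0.09, against −0.01 and 51.4%), and at day 7 in 26 (median −0.26). The contractile genes had 14 of 17 below 0 at day 4 (median −0.14, but 0.09 without the replicate 3 co-culture of day 4 and 0.18 with limma-voom) and 14 of 17 at day 7 (median −0.27), and the latter median was −0.16 over 16 libraries. Averaged over days it was below 0 in 19 (median −0.03, or 0.00 over 16 libraries, against 0.02 and 47.4%). An unadjusted p below 0.05 was reached by 0 of 34 at day 2, 0 at day 4 and 0 for the average, against 2.35%, 0.369% and 4.17% of all genes. At day 7 it was reached by 3, Ccn2, Lats2 and Tead1, all lower, against 9.37% of all genes in either direction and 1.26% as lower. DESeq2 and limma-voom also called 0 of the 34 in these tests.

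Few genes had groups free of overlap. At day 2 co-culture lay wholly above in 2 of 34 (Vcl and Flna) and wholly below in 0, against 3.26% and 2.27% of all genes. At day 4 it lay wholly above in 0 and wholly below in 1 (Wwtr1), against 2.05% and 3.92%. At day 7 it lay wholly above in 0 and wholly below in 2 (Vcl and Lats2), against 4.29% and 5.58%. Over 16 libraries it lay wholly above in 3 at day 7 (Cnn1, Csrp1 and Cnn3) and wholly below in the same 2, against 9.37% and 8.57%. The day 2 difference of the contractile genes was not stable in direction, since their median of 0.16 was −0.17 when the replicate 1 co-culture of day 2 was left out and −0.04 with upper-quartile scaling, which also moved the median of all genes to −0.07.

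By edgeR, 3 of the 34 genes were called between replicate numbers, all of them TGF-beta genes. DESeq2 called 7 and limma-voom 20, and their counts over all genes are given at the end. Tgfb3 and Tgfb2, 2 of the 3 ligands, were higher in replicate 2, and Ltbp1, the latent TGF-beta binding protein that tethers the ligand to matrix, was lower in replicate 3. The replicate numbers stand for 3 dates in the labels, so the 6 libraries of a number are not separate samples of that date. The test of the replicate number, on the model with the groups, called these 3 of the 34 genes (8.82%) by edgeR. Of all 16539 genes 5.76% were called, so the edgeR count is close to the background. The DESeq2 and limma-voom counts were not compared with theirs. At an unadjusted p below 0.05 it gave 12 of 34, against 18.3%.

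Tgfb3 (Entrez 21809) was at 158, 162 and 32.5 CPM in the replicate 2 astrocytes alone at days 2, 4 and 7, and at 139, 170.3 and 147 CPM in replicate 2 of the co-cultures. In replicate 1 it was at 13.4, 41.4 and 38.0 CPM alone and 49.8, 59.2 and 7.23 CPM with neurons, and in replicate 3 at 48.9, 34.5 and 41.7 CPM alone and 59.8, 29.6 and 39.6 CPM with neurons. Replicate 2 was above every library of the other numbers except in astrocytes alone at day 7, where its 32.5 CPM lay among theirs. The 13.4 CPM of replicate 1 alone at day 2 is 2 reads, below that library's floor of 20.2 CPM. The fitted difference was 1.89 (SE 0.42) between replicates 2 and 1 and −1.62 (SE 0.40) between replicates 3 and 2 (edgeR adjusted p = 0.0101), and Tgfb3 was called in all 18 fits that left out 1 library (highest adjusted p 0.0456), and in 1 of the 3 that left out a replicate number, that without replicate 1 (highest adjusted p 0.675).

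Tgfb2 (Entrez 21808) was at 67.0, 92.6 and 20.9 CPM in replicate 2 alone and at 43.7, 90.2 and 104 CPM with neurons, against 13.4 to 44.0 CPM over the 6 libraries of replicate 1 and 13.9 to 32.3 CPM over those of replicate 3. As for Tgfb3, the low value of replicate 2 was that of astrocytes alone at day 7. The 13.4 CPM of Tgfb2 in replicate 1 is also 2 reads, in the same library and below its floor. The fitted difference of Tgfb2 was 1.11 (SE 0.37) between replicates 2 and 1 and −1.39 (SE 0.37) between replicates 3 and 2 (edgeR adjusted p = 0.0439). It was called in 4 of the 18 fits that left out 1 library (highest adjusted p 0.172) and in 0 of the 3 that left out a replicate number (lowest 0.0541). Tgfb1, the third ligand, had at most 5.21 CPM in any library and medians of 2.56, 2.40 and 0.727 CPM in replicates 1, 2 and 3.

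Ltbp1 (Entrez 268977) was at 13.3, 7.75 and 11.7 CPM in replicate 3 of astrocytes alone and at 12.3, 1.97 and 6.75 CPM in replicate 3 of the co-cultures. Its range was 29.3 to 76.1 CPM over replicate 2 and 1.34 to 138 CPM over replicate 1, where the lowest was the day 7 co-culture. All replicate 3 values thus lay below all replicate 2 values. The fitted difference was −2.31 (SE 0.59) between replicates 3 and 2 and −2.55 (SE 0.65) between replicates 3 and 1 (edgeR adjusted p = 0.0352). Ltbp1 was called in 3 of the 18 fits that left out 1 library (highest adjusted p 0.115), in 1 of the 3 that left out a replicate number (that without replicate 1), and missed the threshold with upper-quartile scaling (adjusted p = 0.0507). Over 16 libraries 11 of the 34 genes were called between replicate numbers (Actn1, Actn4, Ajuba, Amotl2, Cnn2, Ltbp1, Tgfb2, Tgfb3, Tpm1, Tpm4 and Zyx), where 8.93% of all genes were.

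**Figure D5:**
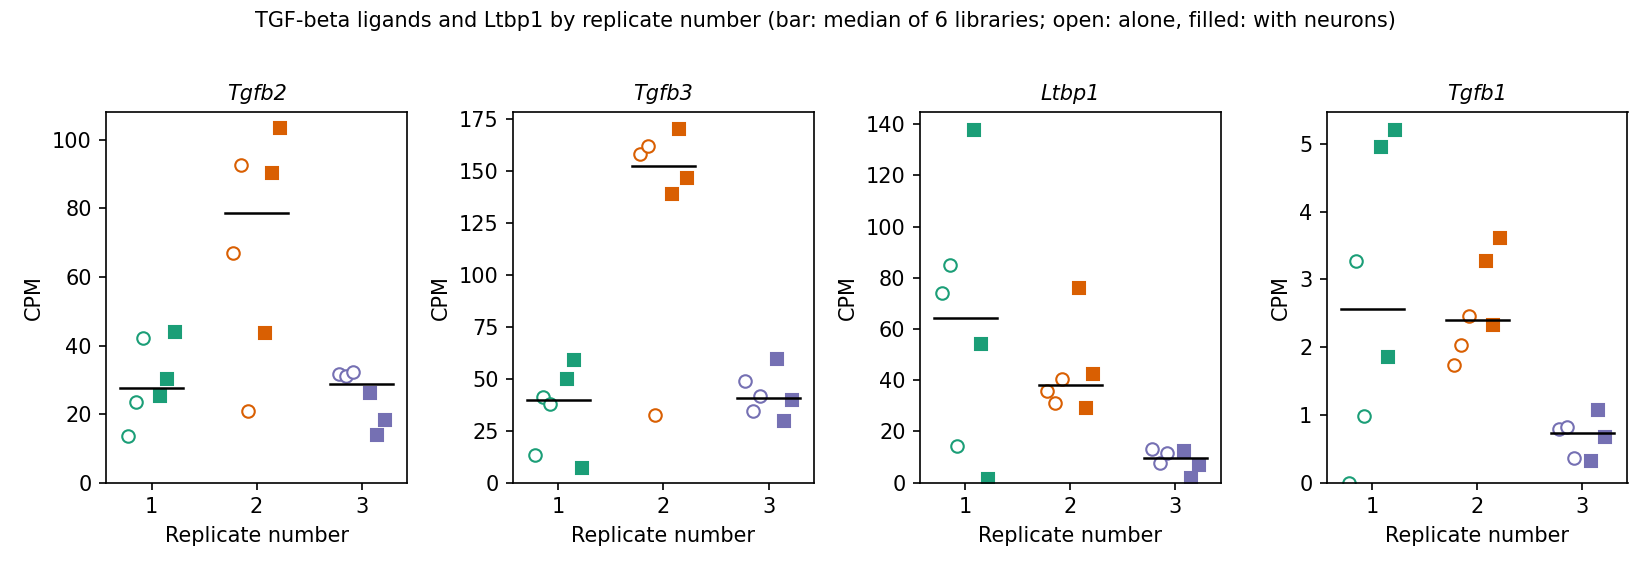
CPM of Tgfb2, Tgfb3, Ltbp1 and Tgfb1 in the 6 libraries of each replicate number, open circles for astrocytes alone, filled squares for co-culture (left to right days 2, 4 and 7 within each) and a bar at the median. Tgfb3 has medians of 39.7, 153 and 40.6 CPM in replicates 1, 2 and 3, with a single low library in replicate 2, and Ltbp1 has 64.1, 38.1 and 9.70 CPM.

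Markers of other cells also differed between the replicate numbers. Astrocyte markers were highest in replicate 3, with Gfap at medians of 130, 492 and 1529 CPM in replicates 1, 2 and 3. Microglial markers summed to 0.581 to 30.3 CPM in replicate 1, 29.0 to 161 CPM in replicate 2 and 0.119 to 1.47 CPM in replicate 3. The replicate number test called 8 of 10 astrocyte, 7 of 8 microglial and 4 of 8 fibroblast markers, and 0 of the 6 tested mural markers. Their part in the differences of Tgfb2, Tgfb3 and Ltbp1 was not tested.

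Within the TGF-beta group, Ltbp2 was lower at day 7 than at day 2 of co-culture. Ltbp2 (Entrez 16997), a matrix protein of the latent TGF-beta binding family, was at 579, 424 and 511 CPM in co-culture at day 2, at 508, 484 and 428 CPM at day 4 and at 140.5, 310.1 and 221 CPM at day 7. In astrocytes alone it was at 302, 426 and 305 CPM, then 412, 545 and 269 CPM, then 306, 488 and 281 CPM. In co-culture all day 7 values lay below all values of the earlier days, and in astrocytes alone the days overlap. The co-culture change from day 2 to day 7 was −1.17 (SE 0.35, edgeR unadjusted p = 0.00377, adjusted p = 0.271), lower in each pair (−2.04, −0.45 and −1.21). It was −0.93 over 16 libraries and −0.95 with the block as well. DESeq2 called it (−1.11, adjusted p = 0.0431), and limma-voom did not.

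Neither receptor gene was called by edgeR in any test. Tgfbr2, the receptor that binds the ligand, ranged from 47.7 to 135 CPM and Tgfbr1, its signalling partner, from 6.72 to 53.1 CPM, with co-culture changes from day 2 to day 7 of −0.26 (SE 0.38) and −0.28 (SE 0.46). The 6.72 CPM of Tgfbr1 is 1 read in the replicate 1 astrocytes alone of day 2, below that library's floor. Tgfbi, an induced matrix protein, was at most 7.16 CPM, near the limit of counting in several libraries. Skil, which encodes SnoN, a repressor of SMAD signalling that TGF-beta induces, ranged from 34.8 to 148 CPM, with a co-culture change of 0.00 (SE 0.50). Over the 9 genes the median change from day 2 to day 7 was −0.28 with neurons and −0.11 alone. Neither direction was stable. The first median ran from −0.65 to 0.03 when replicates or libraries were left out (0.03 without the replicate 2 co-culture of day 2), and the second from −0.64 to 0.18 (0.18 without the replicate 2 astrocytes alone of day 2).

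Other genes of the same pathways gave the following counts for the day 2 to day 7 change in co-culture. Of 28 further genes of actin and SRF, 26 were below 0 (median −0.85), of 26 further genes of the Hippo and YAP pathway 17 (median −0.50), and of 23 further genes of TGF-beta and SMAD signalling 17 (median −0.37), beside 48.8% below 0 and a median of 0.03 over all tested genes. None of these was called by edgeR, and the unadjusted p was below 0.05 for 9 actin genes, all lower, for 6 Hippo genes (5 lower) and for 6 SMAD genes (5 lower), against 13.2% of all genes in either direction and 3.17% as lower. Among those with the highest levels, the fitted change was −1.07 (SE 0.45) for Actb (beta-actin), −0.84 (SE 0.37) for Myh9 (non-muscle myosin heavy chain) and −1.37 (SE 0.57) for Thbs1 (thrombospondin 1, an activator of latent TGF-beta). It was −0.52 for Fat1, a giant cadherin upstream of Hippo signalling, −0.77 for Wwc1 (KIBRA), −0.18 for Crim1, −0.07 for Itgav (integrin alpha V) and −0.38 for Ltbp3. Between replicate numbers edgeR called 1 of 23 SMAD genes (Thbs1), 1 of 26 Hippo genes (Tnfrsf12a) and 3 of 28 actin genes (Flnc, Myl6 and Smtn). These shares were 4.35%, 3.85% and 10.7%, beside 5.76% of all tested genes. Thbs1 had medians of 2306, 2525 and 1065 CPM in replicates 1, 2 and 3 (adjusted p = 0.0264), and Smtn (smoothelin) had 33.1, 14.6 and 5.11 CPM (adjusted p = 0.00772).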

How the data were processed

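Total RNA of 18 libraries was sequenced after removal of ribosomal RNA and library preparation with SMARTer kits, per the labels' protocols. The deposited table holds raw read counts per Entrez gene, which the authors made with Subread and featureCounts on mm9, per the submitters' processing notes. Versions and strand setting were not given in the sources used here. Reads of overlapping or antisense genes, and of near-identical copies, are therefore not told apart. The table's 17 columns of correlations between libraries were not used. RefSeq symbols matched 24191 of 26301 genes.

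From the counts, edgeR 4.0.16 (R 4.3.3) fitted 6 group means over all 18 libraries, with TMM scaling and filterByExpr by group, which kept 16539 genes. Quasi-likelihood F tests were adjusted by Benjamini-Hochberg over these genes at 0.05. Log2 CPM of single libraries used a prior count of 2. A gene's CPM is not scaled by its length, so levels are compared only within a gene. A count of 3 reads served as the floor of a library and covers counting error only. The procedure was tested on simulated data. The members, the pathway and marker lists and the tests were chosen with earlier results of these data known. All members are named whatever their result. Of each pathway list the text names called genes and the 3 with the highest mean CPM, except 1 that is not reported here, and beyond that only cell type markers and the mitochondrial and Entrez 19791 transcripts that set libraries apart.

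The labels give the 6 libraries of a replicate number 1 date, so the numbers pair the samples. After the group means were subtracted, correlations ran from 0.108 to 0.469 between the libraries of a number and day (9 pairs) and from −0.346 to −0.0102 between other numbers (18 pairs). Subtracting the mean of 3 libraries pushes the latter below 0 when the former are above it, so the second range adds no separate evidence. The model with the number as a block was an alternative and also gave the test between numbers. Others were 16 libraries, DESeq2 1.42.0, limma-voom (limma 3.58.1), upper-quartile and median-ratio scaling, other filters and prior counts, and leaving out each replicate or library. No libraries of a group agreed within sampling noise. Figures were drawn with matplotlib 3.10.9.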

Additional observations from a re-analysis of the deposited data

Results flagged for a closer look

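For 5 members (Vcl, Flna, Actn4, Lats2 and Tgfbi) the co-culture effect or the change over days had one sign in all 3 pairs of a group and the other sign in all 3 pairs of another. The share of all tested genes that did so was not counted, so this number has no background beside it. At day 2 co-culture was higher in all 3 pairs for 15.2% of all tested genes and lower for 8.48%. At day 7 the shares were 14.2% and 15.8%, and at day 4 they were 10.7% and 14.8%. From day 2 to day 7 all 3 pairs rose for 13% and fell for 7.57% of the genes in astrocytes alone. With neurons these shares were 12.2% and 14.4%. The 5 members were picked for their opposite signs, so the differences below describe them and are not a test. The mean log2 difference between co-culture and astrocytes alone in Vcl was 0.44 at day 2 and −0.22 at day 4, which differ by 0.66, and it was −0.76 at day 7, which differs from day 2 by 1.198. For Flna it was 0.60 at day 2 and −0.32 at day 7, a difference of 0.93, and for Actn4 0.48 and −0.51, a difference of 0.996. The mean log2 difference of Lats2 from day 4 to day 7 was 0.53 alone and −0.70 with neurons, a difference of 1.23, and from day 2 to day 7 it was 0.83 and −0.81, a difference of 1.64. The test of the co-culture effect between days gave an edgeR adjusted p of 1 for each of these genes, and an unadjusted p of 0.00882 for Lats2.

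For Tgfbi, a gene of few reads, the mean difference from day 2 to day 7 was 1.06 alone and −2.23 with neurons, a difference of 3.28. It had 0 reads in both libraries that stand apart, so its pair values there depend on the prior count.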

How the results depend on the processing

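No member was called in a day or co-culture test except Flna and Ltbp2 by DESeq2 (2 members, day 7 against day 2 in co-culture). With so few calls, the direction of called values cannot show whether directions were stable. Among list medians, that of the YAP genes for co-culture at day 4 had the other sign in 10 of 32 settings. The contractile median for co-culture at day 2 did so in 4, and that for day 7 against day 2 in co-culture in 0. Genes called by DESeq2 were 22 for co-culture at day 2, 5 at day 7, 3 for day 7 against day 2 alone, 242 for that change in co-culture, 150 for any change in co-culture and 1944 between replicate numbers, with 7 members among the last. With the replicate block over 18 libraries, 1 gene was called for co-culture at day 7, for day 7 against day 2 in co-culture, for any change in co-culture and for the difference between days, and no member call changed. Over 16 libraries with the replicate block the calls were 16 for co-culture at day 2, 18 at day 7, 17 for day 7 against day 2 alone and 17 in co-culture, 15 for any change alone and 16 in co-culture, and 23 for the difference between days, with no member among them. Between replicate numbers, 16 libraries gave 1526 genes and 11 members, and limma-voom 3079 genes and 20 members. Leaving out single replicates or libraries gave 0 to 116 genes for any change in co-culture (116 without the replicate 2 and 31 without the replicate 3 co-culture of day 7). Between replicate numbers it gave 156 to 1630 genes and 0 to 11 members (156 without replicate 3, 201 without replicate 2, 1630 without the replicate 1 co-culture of day 7).

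Leaving out replicates moved the median day 2 to day 7 change in co-culture between −1.58 and −0.52 for the contractile and between −1.12 and −0.28 for the YAP genes, and the YAP median at day 7 between −1.24 and −0.25. With upper-quartile scaling the median over all tested genes went from 0.04 to −0.07 at day 2, from 0.00 to −0.15 at day 7 and from 0.02 to −0.09 on average. The cause of these changes was not tested. The library of 3242459 reads limits the day 2 values of astrocytes alone, where 3 reads equal 20.2 CPM.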
